A study of Bos taurus with 6 samples.

Results

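The genes of progesterone synthesis were followed in bovine granulosa cells collected after treatment with luteinizing hormone (LH). The set was a list of 8 genes: STAR, CYP11A1, HSD3B1, FDX1, FDXR, SCARB1, TSPO and POR. Members were found by matching the gene symbol, or an unambiguous synonym, that the platform annotation gives each probe of the bovine oligonucleotide array EMBV3. Of the 8 genes, 7 had a probe, with 9 probes in all, 3 of them for STAR. FDXR was not analysed here. The annotation named 15216 genes on the array.

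Progesterone is made from cholesterol. Granulosa cells take up cholesterol from lipoproteins, partly through the receptor SCARB1, and STAR carries it to the inner mitochondrial membrane. There the enzyme CYP11A1 cuts off the side chain to give pregnenolone, with electrons passed from FDXR to CYP11A1 by the iron-sulphur protein FDX1. HSD3B1 turns pregnenolone into progesterone. TSPO is an outer mitochondrial membrane protein long linked with cholesterol import, and POR passes electrons to the P450 enzymes of the endoplasmic reticulum, such as CYP17A1 and CYP19A1. In the ovulating follicle, LH moves granulosa cells away from oestradiol and towards progesterone, as they become the large cells of the corpus luteum.

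RNA came from granulosa cells of the dominant preovulatory follicle of 3 aged cows (multiparous, numbers 13, 110 and 126) and 3 young cows (nulliparous heifers, numbers 11, 7 and 184), all Hereford. The animals' ages in years are not given in the labels. All 6 received prostaglandin F2 alpha, then 25 mg of LH on day 6, and the follicle was sampled on day 7, 24 h later. The protocol allows follicles to be aspirated or taken at ovariectomy, and cells to be frozen or kept in RNAlater, without saying which cow had which; the characteristics of every sample give aspiration. Cells were spun from the follicular fluid, and their RNA went through 2 rounds of linear amplification. Each of the 6 arrays held 1 aged and 1 young cow, in the pairs 13 with 11, 110 with 7 and 126 with 184, and each pair was run on 2 arrays with the dyes Cy5 and Cy3 exchanged. The labels speak of mother and daughter pairs without tying them to the arrays. The 2 arrays of a pair were averaged, so n = 3 pairs throughout.

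Values are of 2 kinds. A ratio is log2(aged / young) within a pair. A level is the normalised log2 signal of a probe in a cow and can be compared between cows for a single probe only. The negative control spots had median levels of 8.26 to 8.31 in the 6 cows, so a level near 8.3 is background.

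The granulosa marker INHA, the inhibin alpha subunit, stood at levels of 15.11, 15.10 and 14.88 in aged cows 13, 110 and 126, against 10.48, 15.05 and 15.17 in young cows 11, 7 and 184. Young cow 11 thus stood apart from the other 5, and the granulosa markers GATA4 and SERPINE2 were also lowest there, at 8.81 and 10.80. Its INHA and SERPINE2 levels average 2 arrays that disagreed, however. INHA read 236.3 scanner units in Cy3, under the negative control mean of 292.3, but 6663 in Cy5. SERPINE2 read 373.3 in Cy3 and 8758 in Cy5, while GATA4 read 480.1 and 494.0. Over 13 granulosa markers the log2 of the summed signals was 16.25 to 17.44 in aged cows and 14.15 to 17.01 in young cows. Of these markers FOXL2 and HSD17B1 were near background in every cow. Markers at background add to such a sum, so it exceeds the background of a single probe even where no marker is expressed. The sums over 7 oocyte markers, all close to background, were 11.14 to 11.15 in aged and 11.13 to 11.17 in young cows. A longer list has a higher floor. Sums can therefore be compared between cows for the same list only, and the brightest probes weigh most in them. For 16 epithelial markers the sums ranged from 12.72 to 14.16 in aged cows and from 13.83 to 17.04 in young cows, where cow 11 (17.02) and cow 7 (17.04) were the high ones. Leukocyte markers (15 genes) ranged from 13.47 to 15.68 in aged cows, highest in cow 126, and from 13.89 to 14.78 in young cows. These markers did not move together. GZMB stood at 12.03 in cow 126 and 12.62 to 13.95 in the other 5 cows, and TYROBP at 13.87 against 8.25 to 10.62. In those 5 cows GZMB was the brightest leukocyte marker, so it makes up much of their sums. The sums over 8 theca markers ranged from 11.92 to 12.63 in aged cows and from 12.39 to 13.49 in young cows. Among these the theca enzyme CYP17A1 was at background, at 8.35 to 8.37 in aged cows and 8.32 to 8.42 in young cows, whereas ALDH1A1 was at 8.50, 8.45 and 9.75 in aged cows 13, 110 and 126, against 12.87, 12.88 and 9.33 in young cows 11, 7 and 184. In such bulk samples, fewer granulosa cells and less RNA per cell cannot be told apart.

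STAR was the gene of the set with the largest ratio. Its brighter probe (EMBV3_03849) had levels of 12.42, 13.64 and 12.01 in aged cows 13, 110 and 126, against 8.69, 11.63 and 10.33 in young cows 11, 7 and 184. The 2 age groups did not overlap: the lowest aged cow lay 0.37 above the highest young cow. Levels of the 3 aged cows all lay above those of the 3 young cows for 8.82% of the 16241 probes tested, and all below for 8.58%. The absence of overlap for STAR held with both other ways of scaling the channels.

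Before normalisation the same STAR probe read 6236, 14448 and 4403 scanner units in aged cows 13, 110 and 126, against 438.3, 2993 and 1127 units in young cows 11, 7 and 184. The mean of the negative controls was between 199.8 and 402.1 units in the 12 channels. All 6 aged and all 6 young channels of this probe were above the negative controls, and young cow 11 was the closest to them.

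**Figure D1:**
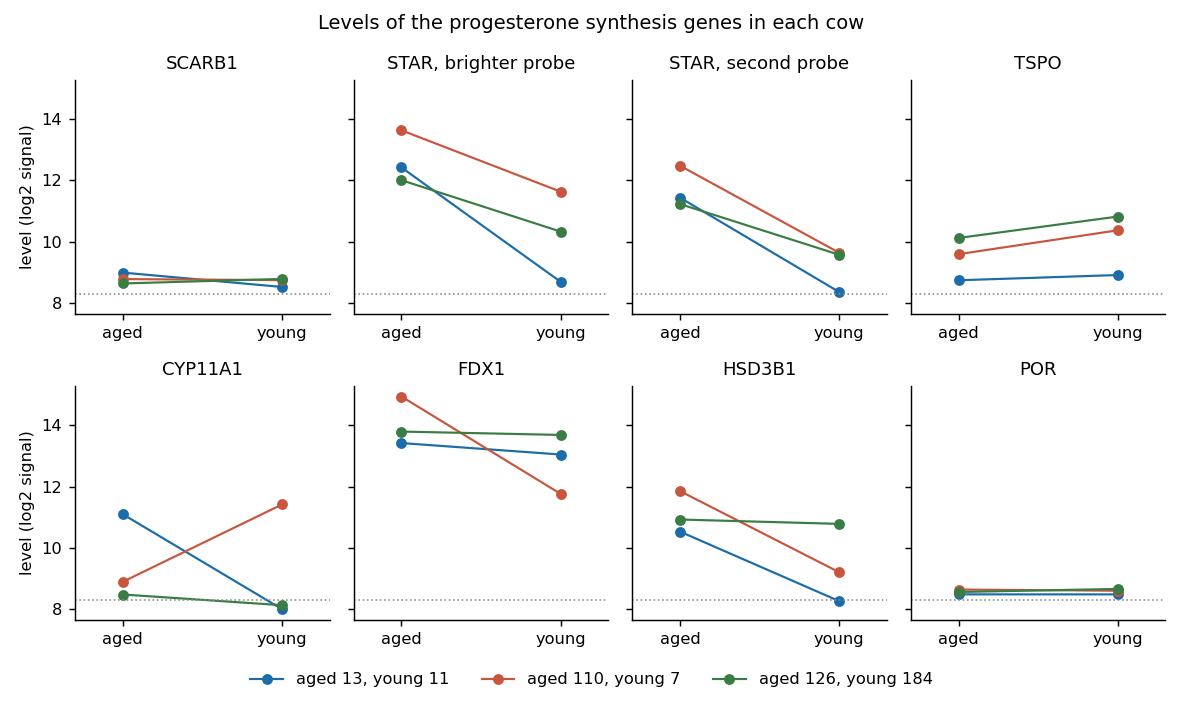
Level (log2 signal, vertical axis) of 8 probes of 7 genes in each cow, with aged cows at left and young cows at right; lines join the 2 cows that shared arrays, and the dotted line is the median level of the negative controls. Both STAR probes separated the age groups, CYP11A1 was high in aged cow 13 (11.09) and young cow 7 (11.42), and SCARB1 and POR stayed close to background.

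The STAR ratios were 3.74, 2.0 and 1.68 in the pairs of cows 13, 110 and 126, a mean of 2.47 ± 1.11 (SD, n = 3 pairs), or 5.55-fold. In young cow 11 the brighter probe was little above background, at 8.69. The value of 3.74, and with it the fold, therefore rests partly on a signal near background. The ratio was above 0 on 6 of 6 arrays, and the dye orientations of a pair differed by at most 0.13. A second STAR probe (EMBV3_20036) gave 3.08, 2.84 and 1.66, a mean of 2.53 ± 0.76 (SD, n = 3 pairs). In young cow 11 this probe was near background, at 8.35, so 3.08 is a difference against background. Its dye orientations differed by up to 0.56. Both probes ordered the 6 cows alike, with aged cow 110 highest and young cow 11 lowest. Across all probes tested, 17.3% were above 0 in all 3 pairs and 22.1% were below 0 in all 3.

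Neither STAR probe reached an adjusted p under 0.05. In limma, after adjustment by Benjamini-Hochberg over the 16241 probes tested, p was 0.469 for each (unadjusted 0.0169 for the brighter and 0.00567 for the second). The 95% interval of the brighter probe's mean ratio ran from 0.84 to 4.11. No probe on the array passed, so 0% were called, while 5.44% lay above 0 and 4.85% below 0 at an unadjusted p under 0.05. Flipping the signs of the 3 pairs in an exact permutation test, two-sided, gave p = 0.25 for STAR, the smallest value that 3 pairs allow. Fitting the 6 arrays as if independent called 250 probes, STAR among them (adjusted p = 0.0435 by limma), but that fit counts both dye orientations of the same RNAs as separate samples.

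The third STAR probe (EMBV3_18125) was at background, with levels of 8.36, 8.39 and 8.32 in aged cows 13, 110 and 126, against 8.22, 8.26 and 8.26 in young cows 11, 7 and 184. It was above the negative controls in 2 of 6 aged channels and 0 of 6 young channels, was not tested, and gives no fold. The plot of spot signals shows it beside the other probes.

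**Figure D2:**
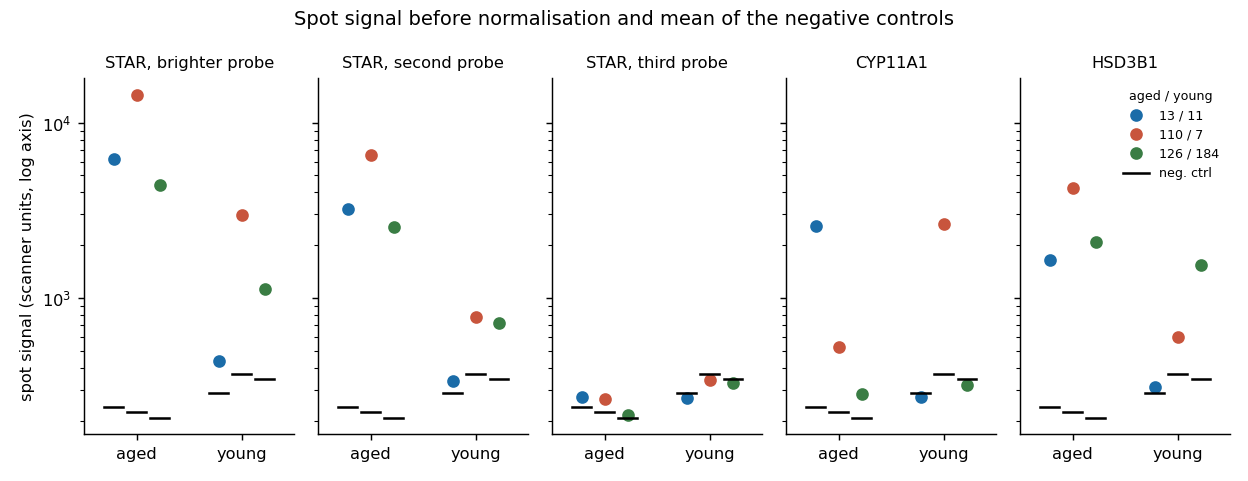
Spot signal in scanner units on a log axis, before normalisation, for the 3 STAR probes, CYP11A1 and HSD3B1; each point is a cow (mean of its 2 arrays), aged at left and young at right, and black bars are the mean of that cow's negative controls. The third STAR probe sat at the bars in every cow, while the brighter probe read 4403 units or more in aged cows and 2993 or less in young cows.

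The granulosa markers stood beside STAR as follows. In the pair of cow 13, where young cow 11 was lowest for INHA, the ratios were 3.74 for STAR, 4.63 for INHA and 4.53 for GATA4. The INHA value averages the 2 arrays that disagreed in young cow 11. GATA4 was little above background in that cow, at 8.81, so 4.53 is taken against a value near background. In this pair 6 of the 7 tested granulosa markers lay above 0. INHA, INHBA, GJA1 and FST were kept through the aged channels alone. For each, 6 of 6 aged and 5 of 6 young channels were above the negative controls, so the marker counts are shaped by the filter. Over all genes tested the median ratio was 0.02, 0.02 and 0.01 in the pairs of cows 13, 110 and 126. In the pair of cow 110 the ratios were 2.0 for STAR, 0.05 for INHA and 1.54 for GATA4. Of the 7 tested granulosa markers 4 lay above 0 in that pair and 3 below, with INHBA at -3.94. In the pair of cow 126 the ratios were 1.68 for STAR, -0.30 for INHA and -0.79 for GATA4, and 5 of the 7 tested granulosa markers lay below 0. INHA read 71.2% to 94.4% of the brightest spot of its channel in the 5 cows other than young cow 11. GATA4 read 4.72% to 32.0% in these 5 cows. In young cow 11 INHA read 0.561% in Cy3 and 16% in Cy5. Without the pair of cow 13 the mean STAR ratio was 1.84 (adjusted p = 0.406 by limma). The median ratio of the tested epithelial markers was -4.39, -4.18 and 0.08 in the pairs of cows 13, 110 and 126, and that of the leukocyte markers -0.30, -0.52 and 1.34. The part of these other cells in the result was not tested.

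HSD3B1, the enzyme that completes progesterone, had a mean ratio above 0 that came from 2 pairs. Its levels were 10.53, 11.85 and 10.92 in aged cows 13, 110 and 126, against 8.26, 9.20 and 10.78 in young cows 11, 7 and 184. Young cow 184 reached the aged range and young cow 11 was at background, so the groups overlapped. On channels scaled by loess alone they did not overlap, by a margin under the spread between cows: the lowest aged cow was at 10.68 and the highest young cow at 10.66.

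The HSD3B1 ratios were 2.27, 2.65 and 0.14 in the pairs of cows 13, 110 and 126. Their mean was 1.69 ± 1.35 (SD, n = 3 pairs; above 0 on 5 of 6 arrays; adjusted p = 0.514 by limma). The probe was tested because all 6 aged channels were above the negative controls; 5 of 6 young channels were. Young cow 11 lay at background, so 2.27 is a difference against background, and no fold is given. In the pair of cow 126 the array with the aged cow in Cy5 read -0.06 and the swapped array 0.34. The mean was 1.21 without the pair of cow 110 and 2.46 without that of cow 126.

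CYP11A1, the side-chain cleavage enzyme, did not sort by age. Its levels were 11.09, 8.89 and 8.47 in aged cows 13, 110 and 126, against 7.99, 11.42 and 8.12 in young cows 11, 7 and 184. Aged cow 13 and young cow 7 were high, and the next cow lay 2.20 below aged cow 13. The ratios were 3.10, -2.53 and 0.35 in the pairs of cows 13, 110 and 126. Only 5 of 6 aged and 2 of 6 young channels were above the negative controls, so CYP11A1 was not tested. Young cows 11 and 184 were below that limit on both arrays, so 3.10 and 0.35 are differences against background, and no mean or fold is given.

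Aged cow 13 and young cow 7 were also the 2 highest cows for 16 further genes of the lists examined. With CYP11A1 these make 17 of 193 genes, or 8.81%, where 3.71% of the 15216 genes named had that order, and many of the 17 lay near background. The 4 that follow were picked after their values were seen. CYP19A1, the aromatase that makes oestradiol, had levels of 13.02, 8.48 and 8.43 in aged cows 13, 110 and 126, against 8.45, 9.68 and 8.36 in young cows 11, 7 and 184. INHBA, an activin and inhibin subunit, stood at 15.10, 11.43 and 11.96 in those aged cows, against 10.49, 15.37 and 11.61 in the young cows. INHBB, the other beta subunit, stood at 13.18, 8.15 and 8.15, against 8.42, 10.75 and 8.14. LRP8, a lipoprotein receptor, stood at 15.01, 8.81 and 8.71, against 8.69, 13.52 and 8.89. LHCGR, the LH receptor, was above 9 in aged cow 13 alone (9.27), with 8.31 to 8.42 in the other aged cows and 8.30 to 8.36 in the young cows.

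FDX1, the electron carrier of CYP11A1, differed mainly in a single pair. Its levels were 13.42, 14.94 and 13.80 in aged cows 13, 110 and 126, against 13.05, 11.76 and 13.69 in young cows 11, 7 and 184. Aged cow 110 was the highest and its array partner, young cow 7, the lowest. The ratios were 0.37, 3.18 and 0.11 in the pairs of cows 13, 110 and 126, a mean of 1.22 ± 1.70 (SD, n = 3 pairs; adjusted p = 0.645 by limma). Without the pair of cow 110 the mean was 0.24.

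FDX1 also showed the widest gaps between dye orientations among the tested members. In the pair of cow 13 the array with the aged cow in Cy5 read 0.86 and the swapped array -0.11. In the pair of cow 126 they read 0.76 and -0.54. These gaps of 0.98 and 1.30 compare with medians of 0.19 and 0.28 over all tested probes in the same pairs. Only the pair of cow 110, at 3.62 and 2.74, had the same sign in both orientations.

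**Figure D3:**
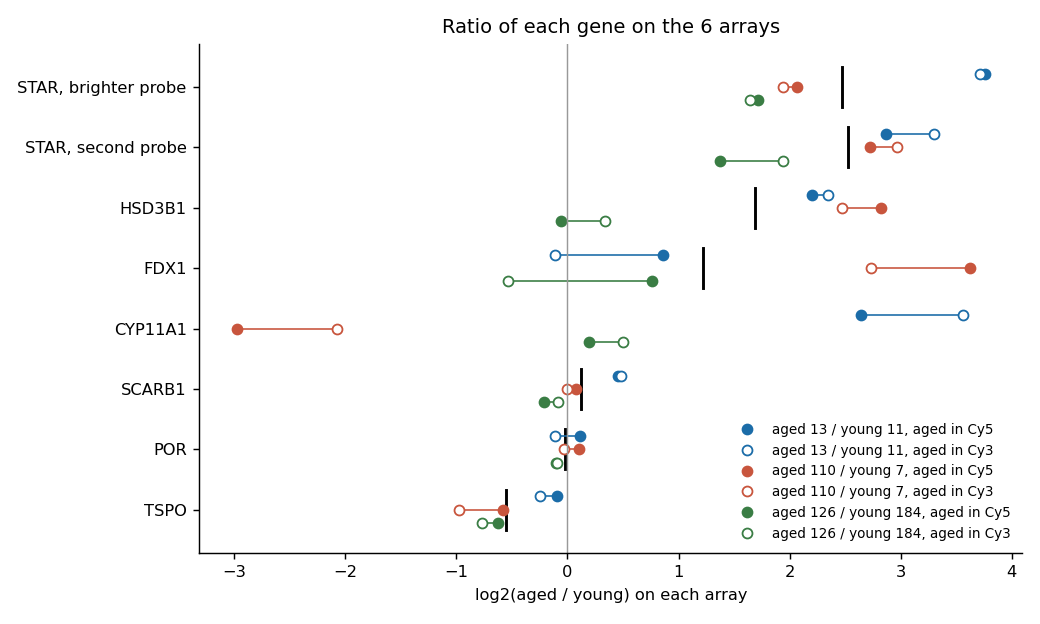
Ratio log2(aged / young) of 8 probes on each of the 6 arrays (horizontal axis); colours are cow pairs, filled points have the aged cow in Cy5 and open points in Cy3, and black bars are the mean over 3 pairs of each tested probe. All 12 values of the 2 STAR probes lay above 0, TSPO lay below 0 on 6 of 6 arrays, and CYP11A1 spanned -2.98 to 3.56.

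SCARB1, the lipoprotein receptor, lay little above background. Its levels were 8.99, 8.78 and 8.63 in aged cows 13, 110 and 126, against 8.52, 8.74 and 8.78 in young cows 11, 7 and 184, and the groups overlapped. The ratios were 0.47, 0.03 and -0.15 in the 3 pairs, a mean of 0.12 ± 0.32 (SD, n = 3 pairs; adjusted p = 0.791 by limma). Its sign turned without the pair of cow 13, to -0.06.

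TSPO was the member with a ratio below 0 in all 3 pairs. Its levels were 8.74, 9.59 and 10.12 in aged cows 13, 110 and 126, against 8.91, 10.37 and 10.82 in young cows 11, 7 and 184. The ranges overlapped, and the range within either age group exceeded the difference within any pair. The ratios were -0.17, -0.78 and -0.70 in the pairs of cows 13, 110 and 126, a mean of -0.55 ± 0.33 (SD, n = 3 pairs), or 0.68 of the young level. TSPO was below 0 on 6 of 6 arrays and had an unadjusted p of 0.0452, with an adjusted p of 0.476 by limma. In the authors' deposited table the array of cow 13 in Cy5 read 0.08, the only TSPO value above 0 among its 6.

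POR, the electron donor of the microsomal P450 enzymes, was within 0.4 of background in every cow. Its levels were 8.48, 8.64 and 8.56 in aged cows 13, 110 and 126, against 8.48, 8.60 and 8.66 in young cows 11, 7 and 184. The mean ratio was -0.02 ± 0.07 (SD, n = 3 pairs; adjusted p = 0.913 by limma), with a 95% interval from -0.26 to 0.21. So close to background, a ratio understates any change in the RNA.

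Over the whole set, 6 genes were tested and 0 passed the threshold. STAR, HSD3B1 and FDX1 were above 0 in all 3 pairs and TSPO was below 0 in all 3; over the 7441 genes tested, the corresponding shares were 20.1% and 17.6%. The pair of cow 126 gave the smallest ratio for STAR, HSD3B1 and FDX1 alike. Across all tested probes the pairs of cows 13 and 110, on a shared slide, correlated at 0.49. The pair of cow 126, whose arrays lay on 2 other slides, correlated with them at -0.16 and 0.03.

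The authors' deposited table, whose 6 columns all ran as aged over young, gave pair values for STAR of 3.86, 2.17 and 1.62 in the pairs of cows 13, 110 and 126. For HSD3B1 the authors' deposited table gave 2.76, 3.04 and 0.30, and for CYP11A1 3.42, -2.82 and 0.56. FDX1 differed in sign in a single pair: the authors' deposited table gave 0.28, 3.19 and -0.43.

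Among the partners of STAR and of mitochondrial cholesterol import, 13 of 25 listed genes were tested and 0 were called. Their median ratio was 0.41, against 0.06 over the 7441 genes tested, with 1.08, 0.69 and -0.10 in the pairs of cows 13, 110 and 126. Of the 13, 4 were above 0 in all pairs and 1 below, where 20.1% and 17.6% of all genes tested were. SLC25A5, an adenine nucleotide carrier of the inner membrane, had levels of 11.00, 10.56 and 10.64 in aged cows 13, 110 and 126, against 9.89, 9.58 and 10.01 in young cows 11, 7 and 184, with no overlap. Aged cows lay all above young cows for 8.82% of all probes tested, and SLC25A5 was named for its small p. The mean SLC25A5 ratio was 0.91 ± 0.25 (SD, n = 3 pairs; adjusted p = 0.469 by limma). The outer membrane channels VDAC1 and VDAC3 had mean ratios of 0.92 and 0.84, and the chaperonin HSPD1 1.15, with 0.10 in the pair of cow 126. The probes of HSPD1 disagreed: a second tested one was below 0 in all 3 pairs, with a mean of -0.45.

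Of the genes that supply cholesterol, 15 of 26 were tested and 0 were called, with a median ratio of 0.12. PLIN2, which coats lipid droplets, had ratios of 2.31, 4.06 and 0.84 in the pairs of cows 13, 110 and 126, and a mean of 2.40 ± 1.61 (SD, n = 3 pairs; adjusted p = 0.483 by limma). SQLE, an enzyme of cholesterol synthesis, had a mean of 0.65, and NCEH1, which frees stored cholesterol ester, 1.10. For NCEH1 2 dimmer tested probes were below 0 in all 3 pairs, with means of -0.22 and -0.08. SREBF2, the transcription factor of cholesterol synthesis, was at -0.24, -1.12 and -1.31 in the 3 pairs, a mean of -0.89, while a second tested SREBF2 probe read -0.35, -1.81 and 0.92.

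Of the other steroid enzymes, 16 of 30 were tested and 0 were called, with a median of -0.04. The smallest p was that of SRD5A1, a steroid 5 alpha-reductase that can use progesterone. Its levels were 9.25, 9.04 and 9.0 in aged cows 13, 110 and 126, against 9.98, 10.01 and 9.65 in young cows 11, 7 and 184, with no overlap. Aged cows lay all below young cows for 8.58% of all probes tested. The mean SRD5A1 ratio was -0.78 ± 0.17 (SD, n = 3 pairs; unadjusted p = 0.0043 and adjusted p = 0.469 by limma). HSD17B7, which acts on oestrogens and in cholesterol synthesis, had a mean ratio of -0.90, the mitochondrial HSD17B10 1.06, and the aldo-keto reductase AKR1B1 0.44.

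Of the transcription factors and hormone inputs, 16 of 32 were tested and 0 were called, with a median of 0.05. NR4A1, an orphan nuclear receptor known to act on steroidogenic promoters, had levels of 12.96, 14.28 and 11.76 in aged cows 13, 110 and 126, against 10.43, 12.14 and 11.29 in young cows 11, 7 and 184, so that cow 126 lay below young cow 7. Its ratios were 2.54, 2.13 and 0.46 (mean 1.71 ± 1.10, SD, n = 3 pairs; adjusted p = 0.475 by limma). For NR5A2, a nuclear receptor of granulosa cells, the probes disagreed: the brightest had a mean ratio of -1.24 and the others 2.82 and 0.31. NR5A1, its relative, was near background, at 8.33 to 8.44 in aged cows and 8.25 to 8.44 in young cows. PPARG, PDE8A and SP1, a nuclear receptor, a cAMP phosphodiesterase and a general transcription factor, had mean ratios of 0.62, 0.91 and 0.25, each above 0 on 6 of 6 arrays. PPARG was above the negative controls in only 2 of 6 young channels, so its ratio is taken against values near background. A second tested SP1 probe had a mean of -0.01.

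Of the corpus luteum genes, 10 of 18 were tested and 0 were called, with a median of 0.37. RGN, a calcium-binding protein, had levels of 11.29, 11.57 and 9.91 in aged cows 13, 110 and 126, against 8.36, 9.0 and 9.52 in young cows 11, 7 and 184, with no overlap. Aged cows lay all above young cows for 8.82% of all probes tested, and RGN was named for its small p. The RGN ratios were 2.93, 2.57 and 0.39, and its adjusted p was 0.488 by limma. In young cow 11 RGN was near background, so 2.93 is a difference against background. HIF1A, the hypoxia factor, was at 3.46, 3.24 and -0.19 in the 3 pairs, and INSIG1, which holds back cholesterol synthesis, had a mean of 0.39. NR1H3, an oxysterol receptor, was at 0.35, 0.33 and 0.39, little above background, at levels of 8.73 to 9.05 in aged cows and 8.38 to 8.72 in young cows, where 5 of 6 channels were above the negative controls. A second NR1H3 probe, not tested, had a mean of -0.22.

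**Figure D4:**
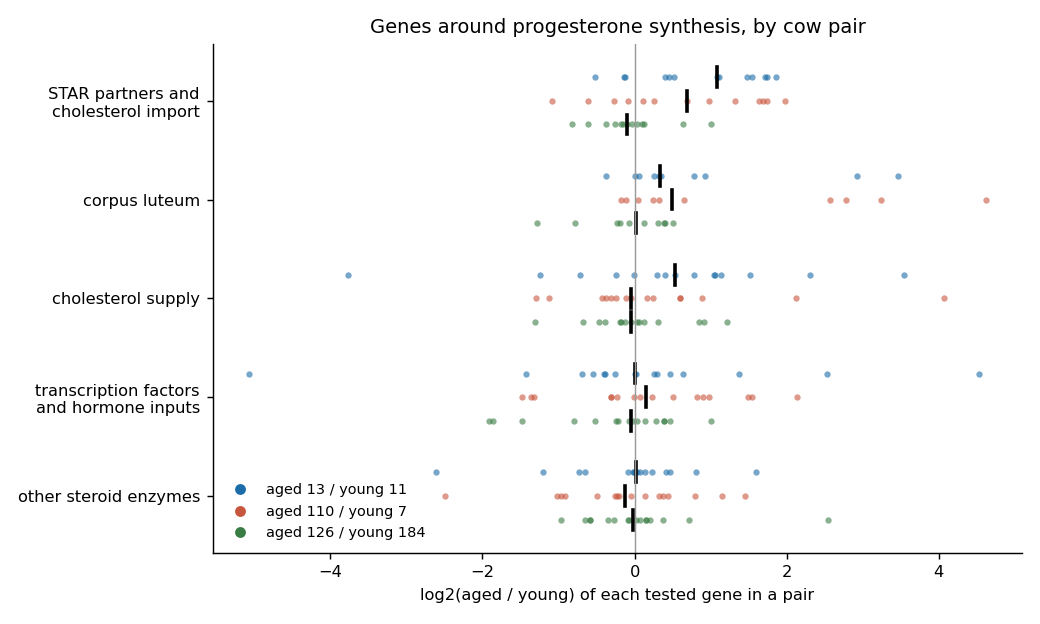
Ratio log2(aged / young) in each cow pair for every tested gene of 5 lists around progesterone synthesis (horizontal axis); points are genes, colours are cow pairs and black bars are medians. The STAR partners had medians of 1.08 and 0.69 in the pairs of cows 13 and 110 and of -0.10 in the pair of cow 126.

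The genes whose levels followed STAR most closely over the 6 cows, among 7440 compared by Pearson's r, were TUFM (0.997), BTG3 (0.989), HSPH1 (0.971), ALYREF (0.960) and WDR83 (0.957). Their ranges were narrower than that of STAR, which spanned 4.95: BTG3 spanned 1.61 and TUFM 0.46. For HSD3B1 they were MMD (0.995), HNRNPD (0.994), ME3 (0.993), GFRA1 (0.992) and PDK3 (0.989). Within the set, r was 0.79 between STAR and HSD3B1, 0.79 between HSD3B1 and FDX1, 0.43 between STAR and CYP11A1 and -0.10 between HSD3B1 and CYP11A1. These describe 6 cows in 3 pairs that share arrays and are given as a description.

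**Figure D5:**
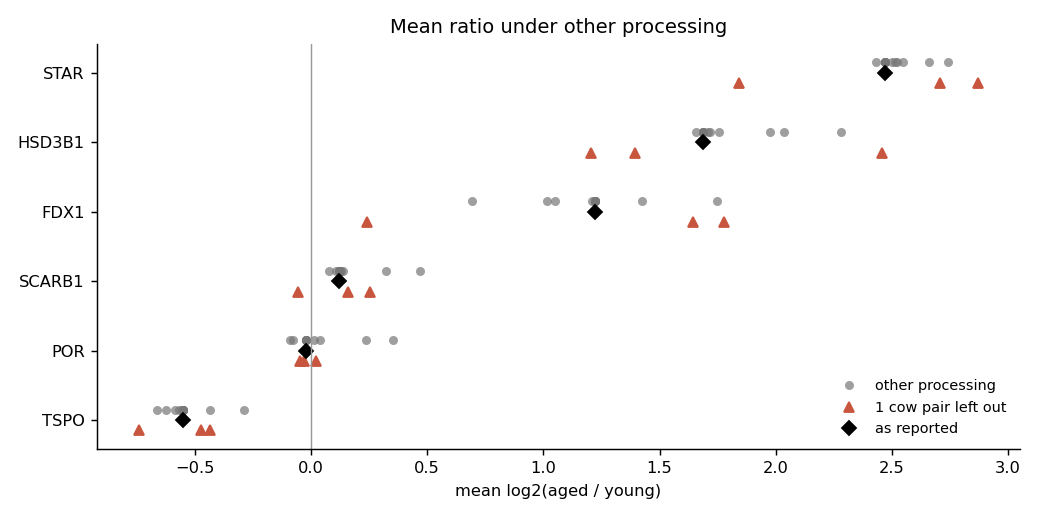
Mean log2(aged / young) of the 6 tested genes (horizontal axis) as reported (diamonds), under other processing (circles) and with 1 cow pair left out (triangles). STAR stayed between 1.84 and 2.87, FDX1 was at 0.24 without the pair of cow 110, and SCARB1 and POR lay on both sides of 0.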

How the data were processed

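The scanner files hold, per the file headers, spot intensity (mean and median) and local background of both channels, not normalised, and, per the file headers, another column that marks spots ignored by the image software. The authors also deposited a table on a log2 scale, for which the submitters' processing notes name limma; its background correction and filter are not given in the sources used here. Its 6 columns correlated with the scanner ratios at r of 0.849 to 0.950 across probes, and their medians lay between -0.0092 and 0.0036.

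Spot means were corrected by normexp (offset 50) and normalised by loess within arrays in limma 3.58.1 (R 4.3.3), with control and ignored spots at weight 0. Arrays of a pair were averaged, and 3 pair values fitted with lmFit and eBayes, two-sided, with Benjamini-Hochberg adjustment at 0.05. Probes were kept (16241 of 43794) where the signal of the aged cow, or that of the young cow, exceeded the mean + 2 SD of the 153 negative controls on all 6 arrays. Between 46.5% and 71.9% of probes per channel did so, except 24.6% for cow 126 in Cy3, and the number of arrays limits precision. In that channel the SD of the negative controls was 99.2 units, against 10.1 to 28.2 in the others, which raised its threshold. SCARB1 and POR fell under it there and were kept through the young cows. Levels had Aquantile scaling added and were averaged over dyes. Of the probes, 21790 had 1 symbol and 22004 none here, and 982 symbols were updated through RefSeq synonyms. Of several probes, the one brightest on average stands for the gene. The pairing is that of the shared arrays; dye swaps correlated at r of 0.62 to 0.85.

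The members, lists and tests were chosen with earlier results of these data known. Named genes are all members, up to 4 tested genes of each list by smallest p, the 5 genes most like STAR and HSD3B1, and NR5A1, NR5A2, GATA4, NR4A1, LHCGR, CYP17A1, CYP19A1 and INHA; CYP11A1's companions and the other markers were added after their values were seen. The fit was run on simulated pair values with 200 changed probes, with noise drawn independently for each probe. It called 2% of the 2-fold, 34% of the 4-fold, 52% of the 8-fold and 64% of the 16-fold changes. A gene that was not called can therefore still have changed.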

Additional observations from a re-analysis of the deposited data

How the results depend on the processing

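Of 15 alternatives, 14 left 0 probes called; the exception had no replicate block (6 arrays as independent) and called 250 probes, with STAR at 2.47 (adjusted p = 0.0435 by limma), 1 STAR partner (SLC25A5) and 2 other steroid enzymes (SRD5A1 and HSD17B7), but it counts technical dye swaps as separate samples. With cow pair as a random replicate block and a term for dye (consensus correlation 0.858), 0 probes were called and the STAR adjusted p was 0.362. With the slide as a random block (correlation 0.440) the STAR adjusted p was 0.221. The slide of cows 13 and 110 held 4 arrays, but the pair of cow 126 was spread over 2 slides. That fit therefore put the dye swaps of cow 126 in separate blocks. Apart from the fit of 6 independent arrays, the STAR adjusted p ranged from 0.221 to 0.994. POR, near background, changed sign to 0.24 in the authors' deposited table, 0.35 with spot medians, 0.011 without background correction and 0.037 with aged cows in Cy5 only; leaving out a pair gave -0.050 to 0.019. SCARB1 ranged from -0.057 (without the pair of cow 13) to 0.25 when a pair was left out, and was 0.32 in the authors' deposited table and 0.47 with spot medians, against 0.12. The cause was not tested. Leaving out a pair moved STAR between 1.84 and 2.87, HSD3B1 between 1.21 and 2.46, FDX1 between 0.24 and 1.78 and TSPO between -0.74 and -0.44. Under the stricter filter on both age groups, 9148 probes stayed and HSD3B1, SCARB1 and POR had no value, since they were not kept. At an unadjusted p under 0.05, 884 probes lay above 0 and 788 below; median centring gave 1999 and 706, the values deposited by the authors gave 627 and 917, spot medians 710 and 896, no filter 1969 and 1220, the filter on both age groups 349 and 676, aged cows in Cy3 only 1348 and 821, the replicate block 1380 and 685, and leaving out a pair 509 and 938, 215 and 74, or 1700 and 792 (pairs of cows 13, 110 and 126). Median centring brought TSPO to -0.29.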
